A study of Mus musculus with 12 samples.

Results

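MERVL and MT2 transcripts were measured in mouse ESCs that lack endogenous TET2, carry a rescue construct and are depleted of SETDB1. MERVL (also named MuERV-L) is a mouse endogenous retrovirus, MERVL-int is its internal, protein-coding part, and MT2 names a set of long terminal repeats (LTRs), the flanking sequences that hold the promoter of such an element. Repeat classes were chosen by name, as those whose RepeatMasker name begins with MERVL or MT2, with earlier results of these data known. There were 7 of them among the 1217 repeat classes counted: the internal regions MERVL-int and MERVL_2A-int, and the LTRs MT2_Mm, MT2A, MT2B, MT2B2 and MT2C_Mm. All 7 passed the filter on low values, as did 939 of all classes. The counts pool every copy of a class in the genome, so no single position can be given for a class.

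Every library came from Tet2 KO ESCs, a line whose Tet2 gene was disrupted by targeting, in which a PiggyBac transposon stably expressed either WT TET2 or a catalytic mutant that cannot oxidise 5mC. All cells were transduced with the shRNA shSetdb1, selected with puromycin and collected after 3 days of selection, so controls and comparison groups share both the KO and the depletion. Naïve ESCs were grown in 2i medium, with inhibitors of MEK and GSK3 and with LIF, and primed ESCs in serum with LIF, and each medium had 3 libraries with WT TET2 and 3 with mutant TET2. Non-targeting shRNA controls are not used here, and the response to SETDB1 loss itself is therefore not measured. Each rescue is a stable derivative of Tet2 KO ESCs, and the sources used here do not say how many clones it holds. Reads came from poly(A) RNA, and a read with several equally good positions in mm9 was placed at one of them at random.

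MERVL is transcribed for a short time in the 2-cell embryo, when the zygotic genome is switched on, and the LTR of MERVL then also starts chimeric transcripts of nearby genes. In cultured ESCs most cells keep MERVL silent, while a rare and transient 2-cell-like population expresses it together with genes such as the Zscan4 cluster. MT2_Mm is the LTR that flanks the youngest MERVL copies, and MT2A, MT2B and MT2C_Mm are related LTRs, many of which stand alone in the genome. DUX activates MERVL, and silencing involves TRIM28 with SETDB1, the demethylase KDM1A, and other chromatin factors.

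Gene totals per library were 8066662 to 21335933 reads, repeat totals 3156928 to 13718028, and 125 to 8769 reads fell on 1 MERVL or MT2 class in a library. Tet2, which both constructs express, had normalised counts of 6790, 8670 and 16400 with WT and 1530, 1760 and 3920 with mutant TET2 in naïve ESCs, and 28800, 24400 and 34800 against 5760, 9400 and 9850 in primed ESCs. Reads of the construct and of what remains of the gene are not separated in these counts, and a transcript count does not tell WT from mutant TET2, so it is no check of the labels. Setdb1, the target of the shRNA, had 149 to 347 normalised counts in all libraries and a log2 WT minus mutant difference of 0.13 (naïve) and 0.16 (primed) (limma, adjusted p = 0.857 and 0.788). The 4 libraries numbered 3 stood apart in the repeat table, with the median class 0.36 to 0.71 higher on the log2 scale than in libraries 1 and 2 of the same group. A ribosomal RNA class, SSU-rRNA_Hsa, took 20.02% of the repeat reads in naïve WT library 3 and 27.4% in primed mutant library 3, against 40.7% to 53.5% in the other 10. Summed markers of ESCs were 38400 to 51200 normalised counts in every library, and Col1a2, a fibroblast collagen, had 0 reads in all of them. The sums of several marker lists moved with the medium. In naïve and primed ESCs the summed normalised counts were 8490 to 14200 and 3160 to 6160 for 4 markers of 2i growth, 1240 to 3100 and 8120 to 13800 for the DNA methyltransferases Dnmt3a, Dnmt3b and Dnmt3l, 14.0 to 30.9 and 139 to 446 for 3 epiblast markers, 33.0 to 90.5 and 13.2 to 19.4 for 4 fibroblast markers, 19.6 to 70.1 and 46.6 to 64.7 for 4 primitive endoderm markers, and 1030 to 1510 and 1370 to 2210 for 4 trophoblast markers. Some sums came largely from 1 gene at their upper end. Tcfcp2l1 reached 10100 normalised counts, against at most 2740 for the other markers of 2i growth. Tcfap2c had 1010 to 2090 normalised counts over all libraries, against at most 154 for the other trophoblast markers. Thy1 reached 84.5, against at most 11.7 for the other fibroblast markers. Otx2 reached 420, against at most 20.5 for the other epiblast markers. The part of the markers in the differences between media was not tested.

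MERVL-int was read in every library, and its highest value in each group was that of library 3. The normalised counts of libraries 1, 2 and 3 were 1020, 812 and 2604 in naïve ESCs with WT TET2. With mutant TET2 they were 1006, 913 and 2873. The 2 naïve groups therefore held nearly the same 3 values. In primed ESCs the counts were 1406, 1273 and 2351 with WT TET2 and 1486, 1450 and 9256 with mutant TET2. The primed mutant library 3 was the highest of all 12, 11.4 times the lowest, and all 4 groups overlapped.

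MT2_Mm, the LTR of MERVL, likewise had the highest value of each group in library 3. Its normalised counts were 639, 566 and 1291 with WT and 647, 648 and 1241 with mutant TET2 in naïve ESCs. In primed ESCs they were 784, 632 and 966 with WT TET2 and 856, 729 and 2747 with mutant TET2. The primed mutant library 3 was again the highest, the naïve WT library 2 was the lowest as for MERVL-int, and no 2 groups were apart.

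**Figure D1:**
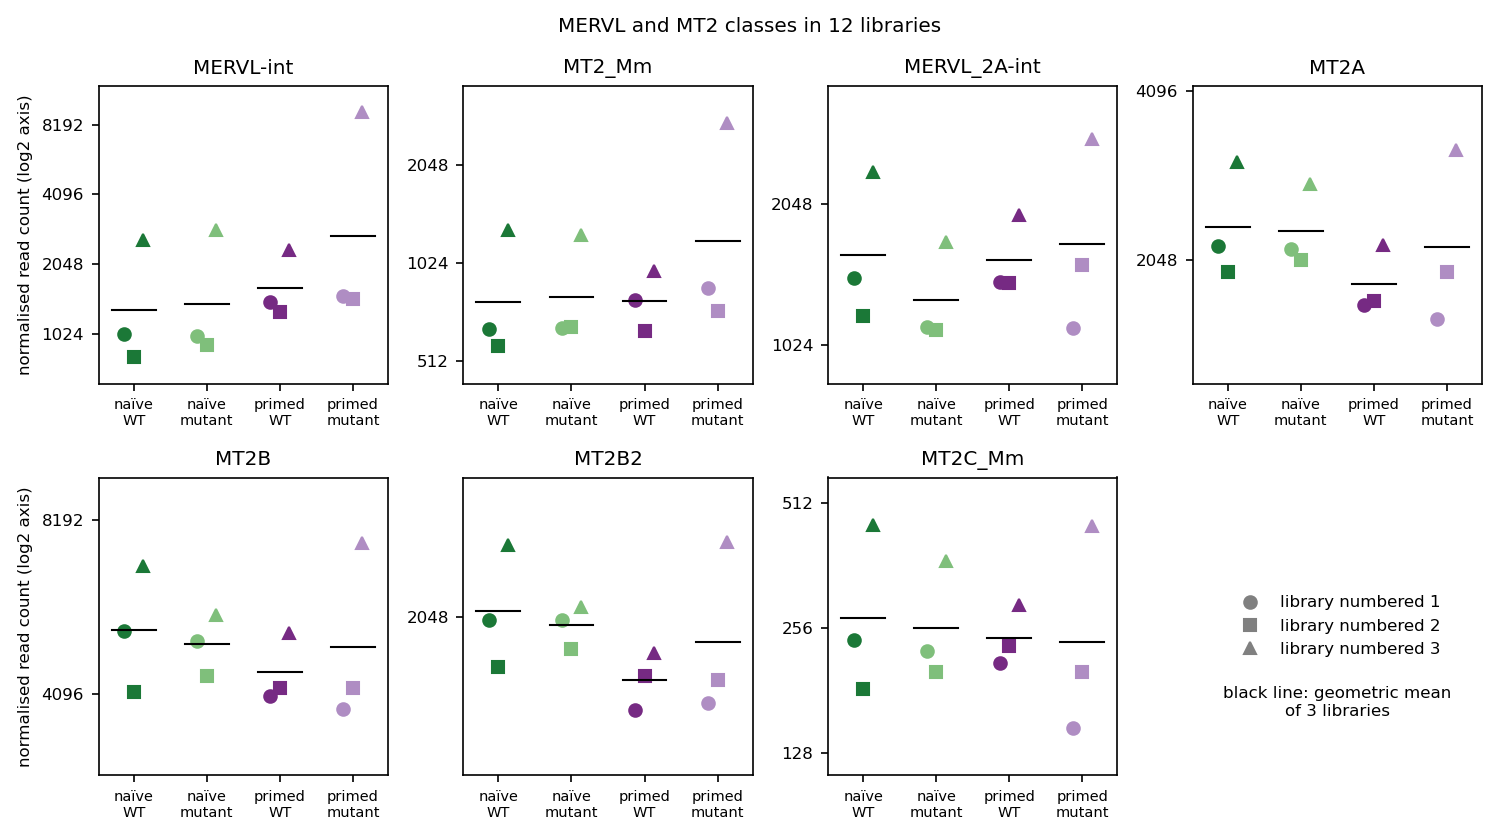
Normalised read counts (log2 axis, a separate range for each panel) of the 7 classes in naïve and primed ESCs with WT or mutant TET2. Each point is 1 library, its shape gives the library number, and the black line is the geometric mean of 3. The triangle, library 3, is the highest point of every group in every panel, and MERVL-int reaches 9256 in the primed mutant library 3.

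The other 5 classes varied less. MERVL_2A-int, a second internal class, had 1098 to 2822 normalised counts over the 12 libraries. MT2A had 1603 to 3210, MT2B 3849 to 7479, MT2B2 1405 to 2764 and MT2C_Mm, the class with the fewest reads, 147 to 455. Library 3 was the highest of its group for all 7 classes in 4 of 4 groups. The highest library overall was primed mutant library 3 for 6 of the classes and naïve WT library 3 for MT2C_Mm. Levels of different classes are not compared, since the classes differ in total length in the genome and no lengths are in the files.

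The order of the 4 groups was not the same for all classes, and no step in it exceeded the spread of the libraries. Mean MERVL-int was highest in primed ESCs with mutant TET2 (11.41 ± 1.53 on the log2 scale, SD, n = 3), followed by primed WT (10.67 ± 0.47), naïve mutant (10.45 ± 0.91) and naïve WT (10.35 ± 0.88). MT2_Mm and MERVL_2A-int were also highest with mutant TET2 in primed ESCs, at 10.24 ± 1.04 and 10.73 ± 0.68. MT2A, MT2B, MT2B2 and MT2C_Mm had their highest mean in naïve ESCs with WT TET2, and MT2A, MT2B and MT2B2 their lowest in primed ESCs with WT TET2. In every case the steps between neighbours, 0.01 to 0.75, were smaller than the larger SD of the pair, and the neighbouring groups overlapped.

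The first question was whether these elements differed between the WT and the mutant TET2 rescue after SETDB1 depletion. The rescues are separate stable lines and their Tet2 transcript levels differed, so catalytic activity, transcript level and line cannot be told apart. The authors report similar TET2 protein in both by western blot. In naïve ESCs 0 of 7 classes differed between WT and mutant TET2 by the rule used for repeats (limma, adjusted p under 0.05 over the classes tested, with a log2 difference beyond 1), as did 0% of all classes, and 0 had an unadjusted p under 0.05. MERVL-int differed by -0.10 (WT minus mutant, SE 0.55, limma, adjusted p = 0.999), with a 95% interval from -1.24 to 1.04. The exact two-sided permutation test of this single value gave p = 0.8, where 3 libraries against 3 cannot give less than 0.1. MT2_Mm differed by -0.05 (SE 0.41, adjusted p = 0.999, exact permutation p = 0.8). The interval of MT2_Mm was -0.90 to 0.80. MERVL_2A-int had the largest difference of the 7, at 0.31, and was higher with WT TET2 in 3 of 3 same-numbered pairs. The median over the 7 classes was 0.08, against 0.06 over all classes, and none of the 7 had groups that did not overlap, against 5.22% of all classes. MERVL-int was -0.60 to 0.43 when single libraries were left out, and turned above 0 without naïve mutant library 3 or naïve WT library 1 or 2, as did MT2_Mm (0.26, 0.09 and 0.17).

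In primed ESCs 0 of 7 classes passed the rule, against 0.319% of all classes, and 0 had an unadjusted p under 0.05. MERVL-int differed by -0.75 (WT minus mutant, SE 0.55, 95% interval -1.89 to 0.39, limma, adjusted p = 0.996, exact permutation p = 0.5), and MT2_Mm by -0.61 (SE 0.41, 95% interval -1.45 to 0.24, adjusted p = 0.996, exact permutation p = 0.5). Primed mutant library 3 gave most of both values. The same-numbered pairs of MERVL-int differed by -0.08, -0.19 and -1.97, and those of MT2_Mm by -0.12, -0.20 and -1.5. Without primed mutant library 3 the difference of MERVL-int became 0.14, and that of MT2_Mm -0.01. The other 5 classes differed by -0.22 to 0.03. The median over the 7 was -0.22, against -0.06 over all classes, and none of the 7 had groups apart, against 3.41% of all classes. The test of whether the rescue difference itself depended on the medium called 0 of 7 (0% of all classes called), with 0.65 (SE 0.78) for MERVL-int and 0.56 (SE 0.58) for MT2_Mm (limma, adjusted p = 0.998 for both). Without primed mutant library 3 these became -0.23 and -0.04.

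The second question was whether the growth state of the cells set the level of these elements. With WT TET2, 0 of 7 classes differed between naïve and primed ESCs, against 2.34% of all classes, and 0 had an unadjusted p under 0.05. MERVL-int differed by -0.32 (naïve minus primed, SE 0.55, 95% interval -1.46 to 0.82, limma, adjusted p = 0.949, exact permutation p = 0.6). MT2_Mm differed by -0.01 (SE 0.41, 95% interval -0.86 to 0.84, adjusted p = 0.995, exact permutation p = 1). The other LTRs had differences above 0 that did not pass the test. MT2B2 differed by 0.40 (SE 0.28, limma, adjusted p = 0.779) and MT2A by 0.34 (SE 0.29, limma, adjusted p = 0.845), and both were higher in naïve ESCs in 3 of 3 same-numbered pairs. None of the 7 had groups apart, against 14.4% of all classes. Without naïve WT library 2 the difference of MERVL-int was 0.01, and that of MT2_Mm was 0.13, 0.21 and 0.14 without naïve WT library 1, naïve WT library 2 and primed WT library 3.

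With mutant TET2, 0 of 7 classes differed between the media, against 3.41% of all classes, and 0 had an unadjusted p under 0.05. MERVL-int had the largest difference of the 7, -0.97 (naïve minus primed, SE 0.55, 95% interval -2.11 to 0.17, limma, adjusted p = 0.647, exact permutation p = 0.5). It was lower in naïve ESCs in each same-numbered pair, by -0.56, -0.66 and -1.68 on the log2 scale. Over repeats the deviations of same-numbered libraries from their group means correlated at r = 0.05 to 0.20. The labels do not say what the numbers mark, so whether these are matched pairs is not known. MT2_Mm differed by -0.57 (SE 0.41, 95% interval -1.41 to 0.28, limma, adjusted p = 0.831, exact permutation p = 0.5), and the other 5 by -0.39 to 0.10. None of the 7 had groups apart, against 11.4% of all classes. Without primed mutant library 3 MERVL-int differed by -0.09 and MT2_Mm by 0.03.

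**Figure D2:**
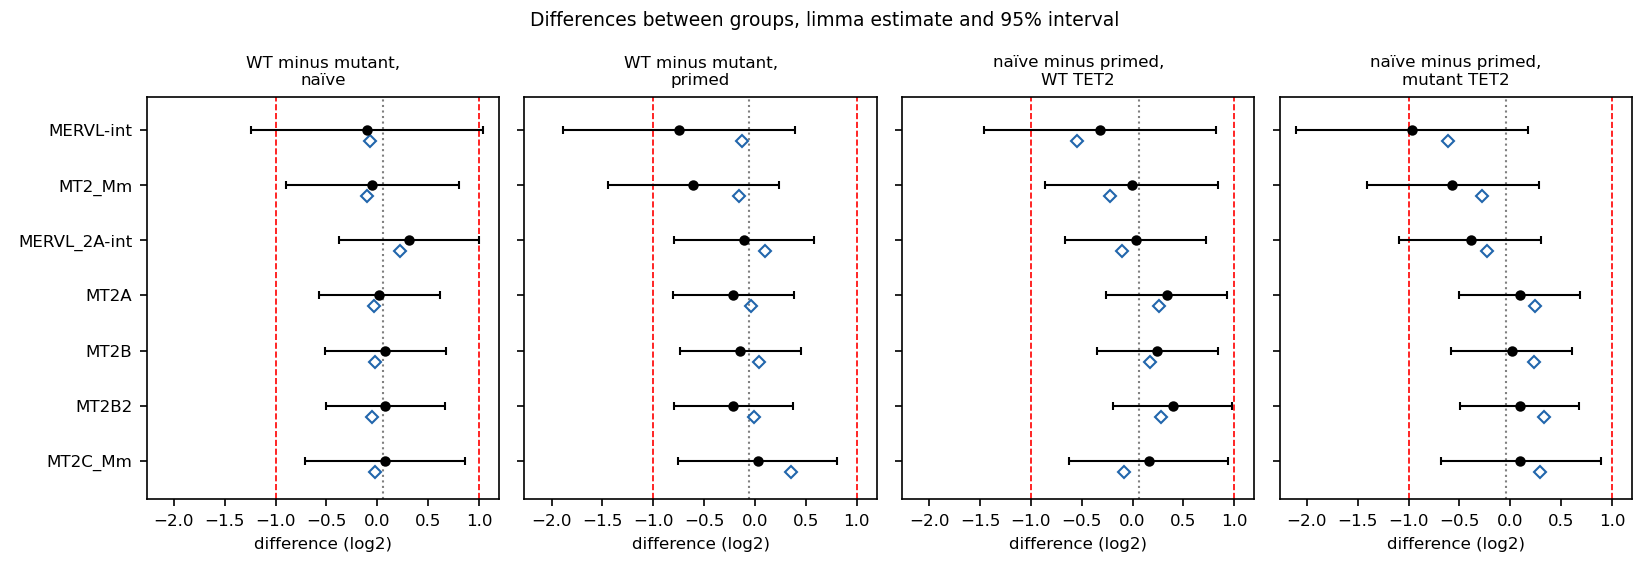
Differences between groups for the 7 classes on the log2 scale, with the limma estimate from all 12 libraries (black point) and its 95% interval (bar). Blue diamonds give the estimate without the 4 libraries numbered 3, the grey dotted line the median of 939 classes, and the red dashed lines a difference of 1 in either direction. Every interval crosses 0, and MERVL-int in naïve against primed ESCs with mutant TET2 lies farthest from it, at -0.97.

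Leaving out all 4 libraries numbered 3, a choice made after the values were seen, left 2 libraries a group and a narrower spread. MERVL-int then differed by -0.07 and -0.13 between WT and mutant TET2 in naïve and primed ESCs (limma, adjusted p = 0.998 and 0.994). Between naïve and primed ESCs it differed by -0.55 with WT TET2 (adjusted p = 0.0662) and by -0.61 with mutant TET2 (adjusted p = 0.0341), both below the limit of 1, so that 0 of 7 classes were called in each comparison. In these 8 libraries MERVL-int had 812 to 1020 normalised counts in naïve and 1273 to 1486 in primed ESCs, without overlap. MT2A (1947 to 2162 against 1603 to 1946) and MT2B2 (1671 to 2019 against 1405 to 1612) lay the other way, higher in naïve ESCs. Of all classes, 10% had the 4 naïve libraries below the 4 primed ones and 13.5% had them above, so that 1 and 2 of the 7 are counts close to the background.

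MERVL-int varied more within the groups than any other class tested. Its pooled within-group SD was 1.02 on the log2 scale, the first in rank of 939 classes, against a median of 0.39. MT2_Mm had 0.68 (rank 29), MT2C_Mm 0.58 (rank 92) and MERVL_2A-int 0.49 (rank 250), while MT2A, MT2B and MT2B2 lay below the median at 0.33 to 0.35. The spread came with the library number. Library 3 exceeded the mean of libraries 1 and 2 in MERVL-int by 1.51 and 1.57 on the log2 scale in the naïve groups (WT, then mutant) and by 0.81 and 2.65 in the primed groups. The same values for MT2_Mm were 1.09, 0.93, 0.45 and 1.78, and for the median class 0.55, 0.45, 0.36 and 0.71. MERVL-int had the largest of these excesses of all 939 classes in primed ESCs with mutant TET2 and ranked 15, 4 and 46 in naïve WT, naïve mutant and primed WT ESCs. MT2B2, by contrast, exceeded the median class in 2 of the 4 groups, with 0.57, 0.16, 0.23 and 0.86. With the size factors of the gene table in place of those of the repeat table the excess of MERVL-int was 1.31, 1.41, 0.56 and 2.13, and that of the median class 0.41, 0.33, 0.13 and 0.27. The labels give no day or batch for the library numbers, and the part of library preparation in the excess was not tested.

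**Figure D3:**
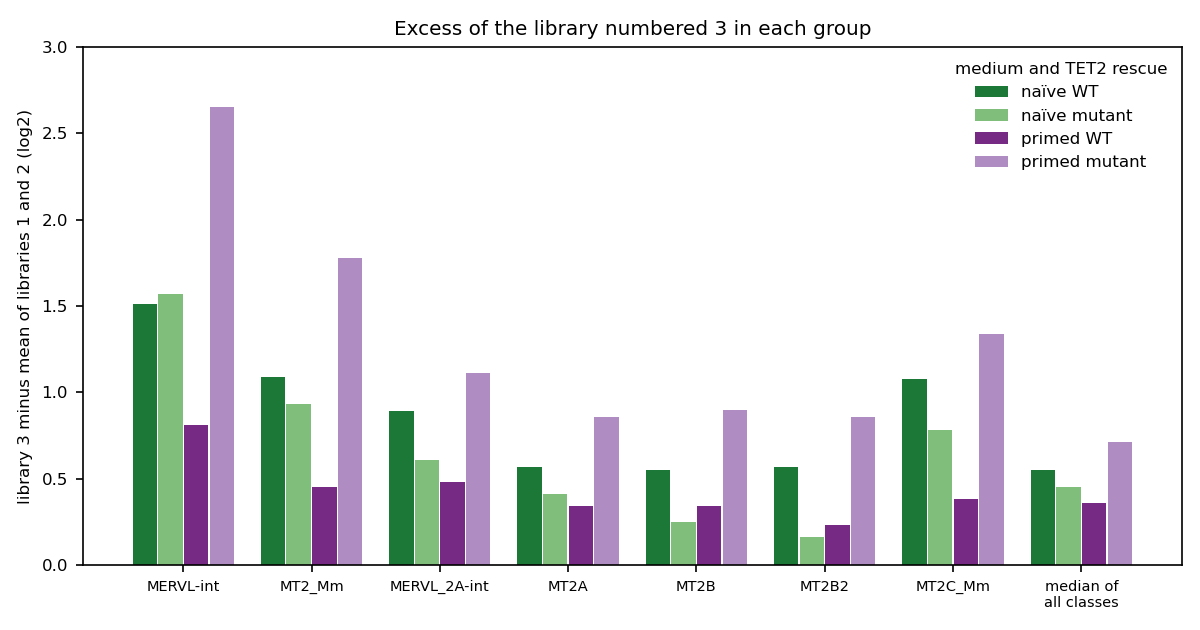
Excess of library 3 over the mean of libraries 1 and 2 of its group on the log2 scale (bars from 0), for the 7 classes and the median of 939 classes, with 1 bar for each medium and TET2 rescue. All bars are above 0, and MERVL-int has the tallest in every group, up to 2.65 in primed ESCs with mutant TET2.

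The balance of LTR and internal reads was compared within libraries, where scaling plays no part. MT2_Mm reads per MERVL-int read were 0.607 ± 0.10 (SD, n = 3) with WT and 0.595 ± 0.15 with mutant TET2 in naïve ESCs, and 0.488 ± 0.074 and 0.459 ± 0.14 in primed ESCs. Within each rescue line the ratio was higher in naïve ESCs in 3 of 3 same-numbered pairs. Whether these libraries are matched is not known from the labels. The groups overlapped, and the differences of 0.118 (WT) and 0.137 (mutant) gave exact permutation p = 0.3 and 0.4. As a share, MT2_Mm was 22.9% of the reads on both classes in primed mutant library 3 (95% Wilson interval 22.0% to 23.8%) and 41.5% in naïve mutant library 2 (39.0% to 44.1%). The 4 libraries numbered 3 had the lowest share of their groups. Reads are not independent molecules, so these intervals cover counting error only.

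**Figure D4:**
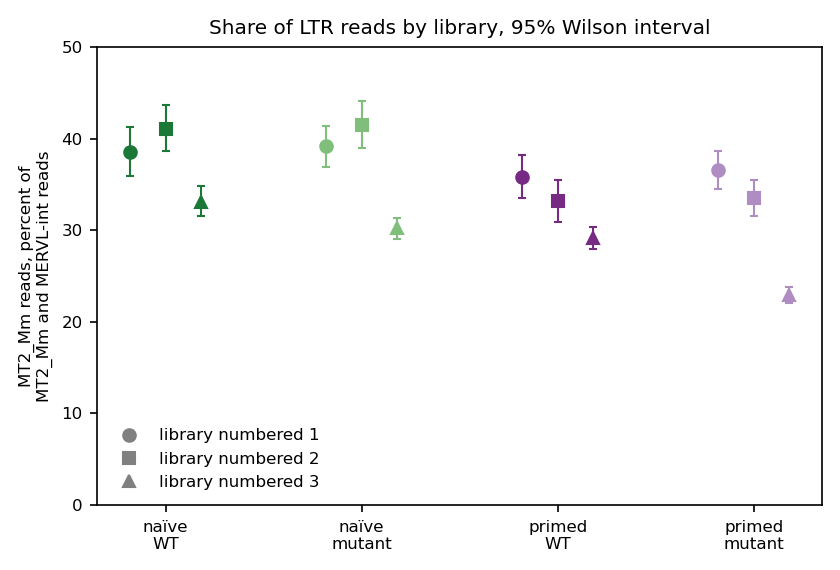
MT2_Mm reads as a percent of the reads on MT2_Mm and MERVL-int together, by group, with 1 point a library and its 95% Wilson interval (bar, counting error only). The lowest point is primed mutant library 3 at 22.9% and the highest naïve mutant library 2 at 41.5%.

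Features that moved with MERVL-int from library to library were sought by Pearson r over the deviations of the 12 libraries from their group means, as a description, since all points share library depth and scaling. Of the 7 classes, MT2_Mm was closest (r = 0.991), then MT2A (0.968), MT2C_Mm (0.961), MERVL_2A-int (0.955), MT2B (0.941) and MT2B2 (0.915). Such values were common among repeats: the median r over all classes was 0.812. Outside the 7, the closest classes were the LTR RLTR13C2 (0.988), the small nuclear RNA class U6 (0.980), the MaLR-type LTRs MLT1B (0.979) and ORR1C2 (0.977), and ORR1A3-int (0.977), followed by MER89, RLTR24, RMER5, MLT1F and RLTR45-int at 0.972 to 0.975. Among genes, where the median r was -0.017, Uggt2 (0.991), Rsbn1 (0.973), Dgke (0.971) and Pramel7 (0.964) came first, then 9030624G23Rik, Zeb1, Slc20a1, Erbb2ip, Zfp599 and Rnf4 at 0.943 to 0.957. Without primed mutant library 3 the r of MT2_Mm was 0.979, that of Uggt2 0.983 and that of Pramel7 0.924.

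Related families are given by their counts and medians. MaLR classes, of the wider ERVL group, were taken as names beginning with ORR1, or with MT but not MT2. Internal classes are thus included and MLT classes left out. These 45 classes had medians of 0.01 and -0.13 for WT minus mutant TET2 in naïve and primed ESCs, with 0 called. The 16 IAP classes had medians of 0.37 and 0.52, with 0 called in naïve and 3 in primed ESCs, and between the media 3 were called higher in naïve ESCs when TET2 was WT and 8 when it was the mutant. Over all classes these 3 comparisons called 0.319%, 2.34% and 3.41%, shares at which 0 of 7 MERVL and MT2 classes is no more than the background.

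Genes of the 2-cell-like state were set beside MERVL, from a list chosen with earlier results of these data known. Of the 57 listed genes 39 had a row in the gene table, and 23 of them passed the filter on low values. In primed ESCs 4 of the 23 were called lower with WT TET2 and 0 higher, against 0.0493% and 0.204% of all genes, and in naïve ESCs 0 were called in either direction, against 0.0987%. The median difference over the 23 was -0.64 in naïve and -1.08 in primed ESCs (0.00 and 0.01 over all genes). The difference was below 0 for 22 of the 23 in naïve ESCs and for 20 in primed ESCs. Groups that did not overlap and were lower with WT TET2 were seen for 13 and 15 of them, against 8.01% and 10.9% of all genes. Apart and higher with WT TET2 in primed ESCs were 3 (Duxbl and its copies Gm10394 and Gm10391, by 0.36 to 0.47), against 11.5% of all genes. Many of these genes lie in clusters of close copies (Zscan4, the Eif1a-like Gm genes, the Usp17-like genes), between which a read placed at random cannot be told apart, so the 23 are not independent of each other. Summed over Zscan4c, Zscan4d and Zfp352, the markers of 2-cell-like cells with a row, the normalised counts were 60.4 to 80.4 with WT and 118 to 192 with mutant TET2 in naïve ESCs, and 30.1 to 63.1 against 118 to 658 in primed ESCs. In bulk RNA, more 2-cell-like cells and more RNA per cell cannot be told apart either, nor can catalytic activity, Tet2 transcript level and line.

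Gm5662, one of the Eif1a-like genes (chromosome 12, 89509084 to 89562433, mm9), had normalised counts of 44.1, 42.2 and 61.5 with WT and 369, 163 and 906 with mutant TET2 in primed ESCs. It fell by 2.48 on the log2 scale with WT TET2 (SE 0.39, limma, adjusted p = 0.00907). In naïve ESCs its counts were 77.1, 86.7 and 150 against 255, 219 and 327, a difference of -1.20 (limma, adjusted p = 0.277). The groups did not overlap in either medium. Gm2016, of the same cluster, differed by -2.19 in primed (adjusted p = 0.0134) and -1.05 in naïve ESCs (limma, adjusted p = 0.281), and Gm4340 by -1.32 and -0.81 (limma, adjusted p = 0.0463 and 0.277).

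Zscan4d, a zinc finger gene of the Zscan4 cluster, had 19.1, 12.1 and 24.9 normalised counts with WT and 112, 58.2 and 359 with mutant TET2 in primed ESCs, and differed by -1.99 (SE 0.38, limma, adjusted p = 0.0336). In naïve ESCs it differed by -0.45 (limma, adjusted p = 0.611). Zscan4c (chromosome 7, 11591071 to 11595896) had 28.0, 30.2 and 28.9 against 69.3, 60.8 and 103 in naïve ESCs, and 29.4, 16.9 and 35.5 against 124, 56.0 and 269 in primed ESCs. Its differences of -0.94 and -1.60 did not pass (limma, adjusted p = 0.291 and 0.0537), although no WT library reached a mutant one, and the second passed without primed mutant library 2 (-2.06, adjusted p = 0.00251). Library 3 was the highest of its group for Zscan4c in 3 of the 4 groups, and in naïve WT ESCs it lay between libraries 1 and 2. The differences of the rescue between media, 1.54 for Zscan4d and 1.28 for Gm5662, were not called (limma, adjusted p = 0.976 for both), as 0 of 14185 genes were.

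The count of 4 changed with single libraries, and the share of all genes called in these refits is not given beside it. It was 0 without primed WT library 1 or 2, 1 without primed mutant library 1, 2 without primed WT library 3 or naïve mutant library 1 or 2, 3 without naïve mutant library 3 or naïve WT library 2, 5 without naïve WT library 3, 6 without naïve WT library 1, and 12 without primed mutant library 2. Without primed mutant library 3, where MERVL-int was highest, 3 were called, and likewise 3 without the 4 libraries numbered 3, with Gm4340 no longer among them. Zfp352, a gene with a transcript that starts in an MT2 LTR in the embryo, was too low to test, with 0.00 to 5.16 normalised counts in 11 libraries and 29.7 in primed mutant library 3. Dux, the activator of MERVL, was also too low, with 0.00 to 8.03.

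**Figure D5:**
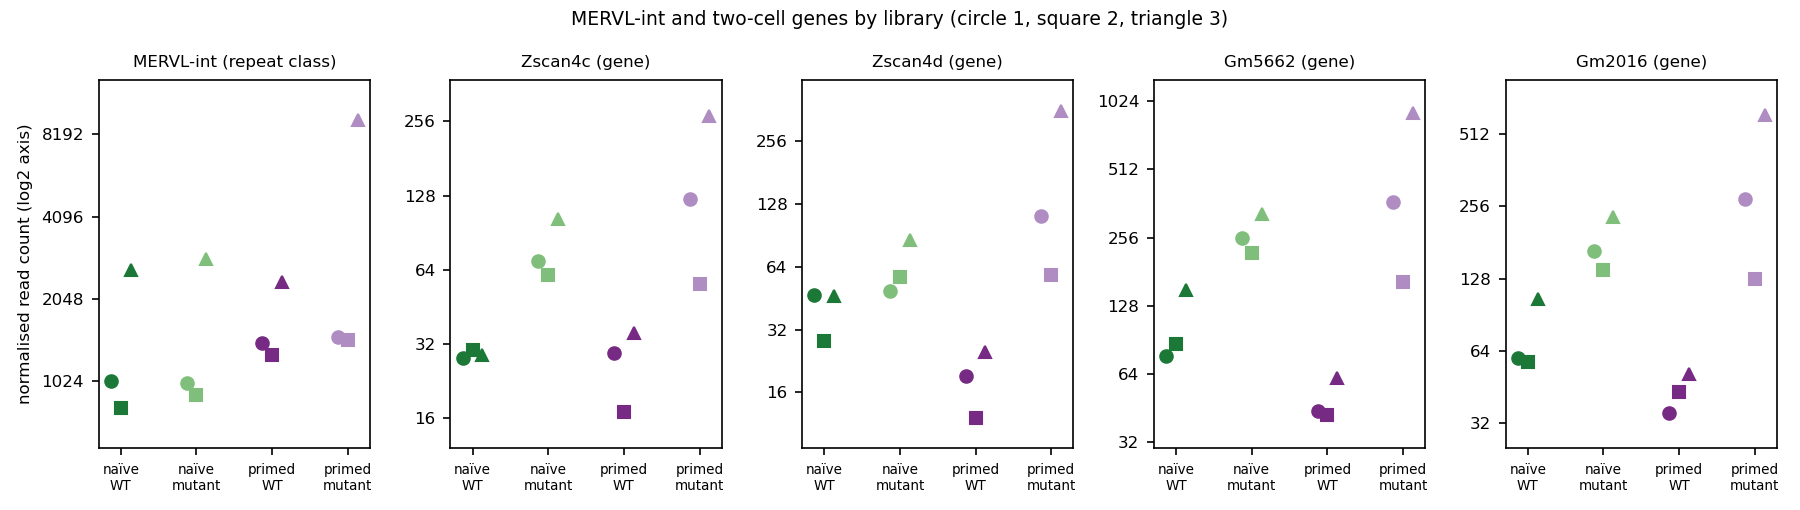
Normalised read counts (log2 axis, a separate range for each panel) of the repeat class MERVL-int and the 2-cell genes Zscan4c, Zscan4d, Gm5662 and Gm2016 in 12 libraries, with 1 point a library and its shape for the library number. Gm5662 and Gm2016 lie lower with WT than with mutant TET2 in both media without overlap, while MERVL-int overlaps between the rescues in both.

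Between the media 5 of the 23 2-cell genes were called with WT TET2, 1 higher in naïve ESCs (18.6% of all genes) and 4 lower (17.3%), and 3 with mutant TET2, 0 higher (18.3%) and all 3 lower (16.9%). Gm13119, a PRAME-like gene, rose by 1.31 in naïve ESCs with WT TET2 (limma, adjusted p = 0.0012) and differed by 0.59 with mutant TET2 (adjusted p = 0.0954, or 0.0101 without primed mutant library 3). Pramel6 and Pramel7 were lower in naïve ESCs. Pramel6 differed by -1.10 and -1.17 with WT and mutant TET2 (limma, adjusted p = 0.00865 and 0.00605), and Pramel7 by -0.71 and -1.74 (adjusted p = 0.153 and 0.00226). With WT TET2 Pramel7 passed with library number as a block (limma, adjusted p = 0.0154). It also passed without the 4 libraries numbered 3 (-0.81, adjusted p = 0.0136). Duxbl, a double homeobox gene related to Dux, was lower in naïve ESCs with WT TET2 by -0.97 (limma, adjusted p = 0.00139), and differed by -0.37 with mutant TET2 (adjusted p = 0.167). Its close copies Gm10394 and Gm10391 were lower with WT TET2 as well, by -0.90 and -0.76 (limma, adjusted p = 0.00212 and 0.0084). Gm4340 differed by -0.91 with mutant TET2 (limma, adjusted p = 0.0134), and lost the call without naïve mutant library 1 or primed mutant library 3. Zscan4c differed by 0.08 and -0.59 (limma, adjusted p = 0.879 and 0.179), and by -1.05 with mutant TET2 without primed mutant library 2 (adjusted p = 0.0135). Leaving out primed mutant library 2 took the count with mutant TET2 from 3 to 11, leaving out naïve mutant library 1 took it to 2, and leaving out primed mutant library 3 took the count with WT TET2 from 5 to 8. The share of all genes called in these refits is not given, so a general change in calls cannot be told from one in this list.

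Of the listed activators of MERVL 9 of 12 were tested. With WT TET2, 3 were called lower and 1 higher in naïve ESCs (17.3% and 18.6% of all genes), and with mutant TET2 2 lower and 0 higher (16.9% and 18.3%), counts of few genes that lie near these shares. Dppa2, which acts upstream of Dux, had 340, 477 and 604 normalised counts with WT TET2 in naïve and 1420, 1370 and 1530 in primed ESCs. With mutant TET2 it had 368, 283 and 471 against 1880, 1390 and 2130. Dppa2 was lower in naïve ESCs in both lines, by -1.58 and -2.19 on the log2 scale (limma, adjusted p = 3.81e-05 and 1.53e-06), and so was its partner Dppa4, by -0.47 and -0.64 (limma, adjusted p = 0.0124 and 0.00188). Gata2, an activator of MERVL in ESCs, differed by -1.12 with WT TET2 (limma, adjusted p = 0.00679) and by -0.40 with mutant TET2 (adjusted p = 0.296), and Dppa3, a maternal factor, by 1.01 and 0.73 (adjusted p = 0.0145 and 0.0668). Without the 4 libraries numbered 3 Gata2 lost its call (-0.71, adjusted p = 0.0674), and Dppa3 lost its own without naïve WT library 2 or primed WT library 3. With mutant TET2 Dppa3 passed without naïve mutant library 3 or primed mutant library 1 (adjusted p = 0.0127 and 0.0228), and the count of 2 became 5 without primed mutant library 2. Between the rescues 0 of the 9 were called in naïve ESCs (0.0987% of all genes). In primed ESCs 1 was called, lower with WT TET2 (0.0493% of all genes), the Zscan4d named above. That count was 3 without primed mutant library 2, 2 without naïve WT library 1, and 0 without naïve mutant library 1 or 2, primed mutant library 1 or any 1 primed WT library. For the refit counts of activators the share of all genes called is not given either.

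All 34 listed repressors of MERVL were tested. In naïve against primed ESCs 10 were called lower and 1 higher with WT TET2 (17.3% and 18.6% of all genes), and 13 lower and 1 higher with mutant TET2 (16.9% and 18.3%). Trim28, the corepressor that recruits SETDB1, had, with WT TET2, 14900 to 16100 normalised counts in 2i against 26700 to 34100 in serum, and with mutant TET2 10600 to 16100 against 22400 to 30500. It was lower in naïve ESCs by -0.94 and -1.08 (limma, adjusted p = 0.000974 and 0.000341). Zfp42 (Rex1), which binds MERVL, differed by -0.94 and -1.29 (limma, adjusted p = 0.0105 and 0.00129). The first of these calls was lost without naïve WT library 1 (adjusted p = 0.0595). Lin28a, an RNA-binding protein, differed by -3.07 and -3.38 and had the largest change of the list.

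The PRC1.6 subunits L3mbtl2, Max and Rybp (-0.74 in both, limma, adjusted p = 0.00756 and 0.0073) were lower in naïve ESCs in both lines. The subunits Mga (0.14 and 0.11, limma, adjusted p = 0.66 and 0.754) and Pcgf6 (-0.16 and -0.42, adjusted p = 0.539 and 0.0823, the second being 0.0404 without naïve WT library 3) did not pass. Not every listed gene of this complex is given here. L3mbtl2 differed by -0.93 and -0.95 (limma, adjusted p = 0.000696 and 0.000651) and Max by -0.88 and -1.11 (adjusted p = 0.00323 and 0.000594). The 2 listed subunits of chromatin assembly factor CAF-1 went opposite ways, with Chaf1a at -0.76 and -0.57 (limma, adjusted p = 0.00232 and 0.0148) and Chaf1b at 0.88 and 0.75 (adjusted p = 0.00185 and 0.00569). Cbx1, a heterochromatin protein, differed by -0.45 and -0.82 (limma, adjusted p = 0.0295 and 0.000681). Calls of Cbx1 with WT TET2 were lost without any 1 of naïve WT libraries 1 and 2 or the 3 primed WT libraries, and those of Chaf1a with mutant TET2 without naïve mutant library 2 or primed mutant library 1 or 2. Kdm1a, the H3K4 demethylase, did not pass (0.05 and -0.24, adjusted p = 0.773 and 0.157), nor did Setdb1 (-0.45 and -0.42, limma, adjusted p = 0.167 and 0.201, the second being 0.0286 without primed mutant library 1). The count with mutant TET2 fell from 14 to 9 without naïve mutant library 2 or primed mutant library 2. Here too the share of all genes called in the refits is not given.

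Between the rescues 1 of the 34 was called in each medium, higher with WT TET2. Of all genes, 0.0987% were called in naïve ESCs, and 0.204% (higher with WT TET2) and 0.0493% (lower) in primed ESCs. The 1 gene was Tet2 itself, which both constructs express, so it is no result about the other repressors. Tet2 was higher with WT TET2 by 2.16 in naïve and 1.84 in primed ESCs (limma, adjusted p = 0.0154 and 0.0297). The naïve call was lost without naïve mutant library 1 or 2 or naïve WT library 3, and the primed call without primed mutant library 1 or 2 or any 1 of the 3 primed WT libraries. The Tet2 transcript also differed between the media, naïve minus primed, by -1.55 in the WT and -1.87 in the mutant line (limma, adjusted p = 0.00207 and 0.000515). MERVL-int and MT2_Mm had no call in any of the comparisons in which their activators, their repressors or Tet2 differed. The rules differ, since a gene needed no log2 difference beyond 1. Without that limit both classes still had no call in the fit of all 12 libraries. MERVL-int then passed between media with mutant TET2 without the 4 libraries numbered 3 (-0.61, limma, adjusted p = 0.0341). It also passed with library number as a block (-0.97, adjusted p = 0.00356). Its interval in the main fit was -2.11 to 0.17, so a missing call does not show an unchanged level.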

How the data were processed

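The deposited files hold variance-stabilised values on a log2 scale, which the authors made with DESeq2 from reads trimmed with Trim Galore 0.3.3, aligned to mm9 with TopHat2 2.0.9 and counted per gene or RepeatMasker class. Genes and repeats were normalised separately, without strand. Inverting the transformation gave whole reads for 100% of values (within 0.05), and these, divided by the size factors, are the normalised counts. All columns were used.

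Groups came from the labels. The files hold transformed values, so all 12 libraries were fitted in limma 3.58.1 (R 4.3.3), with 4 groups, an intensity trend and Benjamini-Hochberg adjustment. Features needed a mean of at least 1 above the lowest value (939 of 1217 classes, 14185 of 26061 genes). A repeat class counted as called when its adjusted p was under 0.05 and its log2 difference beyond 1, a gene when its adjusted p was under 0.05. Rescues, media and their interaction gave 5 comparisons. Nothing in the labels ties libraries to separate cultures, so p-values measure the spread between these libraries. Python 3.11.15, numpy 2.4.6, pandas 2.3.3, scipy 1.17.1 and matplotlib 3.10.9 made the tables and figures. The fit was also run on simulated data that held no effect of the library number, and that run does not show how the fit handles such an effect.

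The classes, gene lists and markers were chosen with earlier results of these data known. Named genes are those of the lists called in any comparison, up to 12 per list, plus Zscan4c, Zfp352, Tcstv3 (no row), Dux, Dppa2, Dppa4, Kdm1a, Trim28, Zfp42, Setdb1 and Tet2, and not all of them are printed. Older symbols were matched through RefSeq names. Listed genes without a row are not used here, nor are repeat sequences. Gene positions are those of the mm9 annotation.

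Replicate numbers come from the labels. Deviations of same-numbered libraries were correlated. The mean r was 0.40 (repeats) and 0.42 (genes) between rescues in naïve ESCs and 0.20 (repeats) between media with WT TET2. All these pairs were over 0.1, and there the numbers were treated as pairing the libraries. Over genes the pairs between media with WT TET2 had r from -0.02 to 0.22, so the pairing of those libraries is not settled. Elsewhere at least 1 pair was below 0.1, which does not show that the libraries are unmatched. The alternatives were other filters, scalings and variance models, a replicate block, the 6 libraries of a comparison alone, and each library left out. Leaving out the libraries numbered 3, and a block across all 4 groups, were added after the values were seen.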

Additional observations from a re-analysis of the deposited data

How the results depend on the processing

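In each of the 5 comparisons 0 of 7 MERVL and MT2 classes were called under every alternative run, 24 refits for each comparison and 23 for the interaction, limma-voom on the recovered counts included. With no limit on the difference the count stayed 0 in the limma fit of all 12 libraries, but MERVL-int passed between media with mutant TET2 under the replicate block and without the 4 libraries numbered 3 (adjusted p = 0.00356 and 0.0341). The lowest adjusted p of any class was 0.637 and 0.19 between rescues in naïve and primed ESCs, 0.0662 and 0.00356 between media with WT and mutant TET2, and 0.97 in the interaction. With 3 libraries a group, intervals of MERVL-int more than 1 wide on either side limit what could be seen, and 14 reads in the lowest library limit Zscan4c.

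Where the numbers were treated as pairs, the replicate block changed no call of a class or of Tet2, and 0 of the 2-cell genes were called between rescues in naïve ESCs. Elsewhere, which for genes includes the media with WT TET2, it is not settled whether same-numbered libraries are matched. There the block gave MERVL-int an adjusted p of 0.00356 between media with mutant TET2 (difference -0.97, under the limit of 1) and 0.19 between rescues in primed ESCs, 16 called 2-cell genes and 3 activators between rescues in primed ESCs, 8 2-cell genes between media with WT TET2, and 5 2-cell genes and 4 activators with mutant TET2. Of 6 libraries, 2 and 4 correlated best with their own number over repeats in those 2 comparisons, and 3, 3 and 0 over genes between rescues in primed ESCs and between media with WT and with mutant TET2. Shares of all genes called under the block are not given, so a general rise in calls cannot be told from one in these lists.

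Centring on the median gave 7 called 2-cell genes and 3 activators between rescues in primed ESCs. Without the 4 libraries numbered 3 Kdm1a differed by -0.01 and Mga by -0.07 between media with WT TET2. Other alternatives moved no count by over 1.5 times, and beside single libraries none reversed MERVL-int or MT2_Mm. The cause of these changes was not tested, and the share of all genes called in these refits is not given.

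With single libraries left out, MERVL-int ranged from -0.60 to 0.43 and -1.20 to 0.14 between rescues (naïve, primed), from -0.82 to 0.01 between media with WT TET2 and from -0.23 to 1.17 in the interaction. MT2_Mm ranged from -0.41 to 0.26 between rescues in naïve ESCs, -0.37 to 0.21 and -0.92 to 0.03 between media (WT, mutant), and -0.04 to 0.91 in the interaction. Setdb1 ranged from -0.07 to 0.31 and -0.14 to 0.38 between rescues, Zscan4c from -0.09 to 0.20 between media with WT TET2, and Mga from -0.03 to 0.33 and -0.19 to 0.31 between media (WT, mutant). Called 2-cell genes numbered 0 to 12 between rescues in primed ESCs, 5 to 8 and 2 to 11 between media (WT, mutant). Called activators numbered 0 to 3 between rescues in primed ESCs and 2 to 5 between media with mutant TET2, and called repressors 0 to 1 between rescues in each medium and 9 to 15 between media with mutant TET2. No share of all genes called goes with these counts, so a general change in calls cannot be told from one in the lists.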
